A study of Mus musculus with 72 samples.

Results

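The reporters described here are the 1063 of 17857 mapped integrations that lay on mouse chromosome 11, taken as every row of the deposited table with that chromosome (build mm9), whichever of the 6 cell pools it came from. Each integration is a copy of 1 transgene at its own genomic site. The remaining 16794 integrations, on the other chromosomes of the same pools, served as the comparison. The series used TRIP, an assay that puts many copies of a reporter, each with its own random barcode, at scattered sites and reads all of them at once. All cells were mouse embryonic stem cells of the EBRTcH3 line, which express the tetracycline-controlled transactivator from the Rosa26 locus, and every reporter carried the mouse PGK (mPGK) promoter. The library was delivered as a piggyBac transposon together with a plasmid for the mPB transposase, and cells with low eGFP signal were sorted. They were grown for 5 days, small pools were then grown for 7 days, and each pool was split into 2 cultures grown apart for 7 more days. The cultures of a pool are technical replicates 1 and 2, and the pools are named mPGK-A to mPGK-F. All of them share the line, the promoter, the sort and a medium with leukemia inhibitory factor, the MEK inhibitor PD0325901 and the GSK-3 inhibitor CHIR99021.

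A transgene takes on part of the activity of the chromatin around it, which is known as a position effect, so identical reporters read out the regional environment of each site. The promoter of phosphoglycerate kinase, an enzyme of glycolysis, is used as a housekeeping promoter that is active in most cell types. PiggyBac inserts at TTAA sites and is known to favour open chromatin and transcribed genes. Mouse chromosomes have the centromere at one end, so low coordinates are proximal to it and high coordinates lie towards the distal telomere. Chromosome 11 is known as one of the gene-rich mouse chromosomes. The RefSeq table of GRCm38.p6, used here only to count genes, gave it 1609 protein-coding genes, behind 2030 on chromosome 7 and 1782 on chromosome 2, both of which are longer.

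Barcodes are the sequence by which a reporter is told from its copies elsewhere. They are shown for the highest and the lowest named reporter of the chromosome, for a second high reporter close to the highest, and for a pair of reporters listed a single base apart, on opposite strands, whose expression differed by 5.55 log2 units. The labels do not say which base of a TTAA site is listed on each strand, so reporters listed 1 base apart on opposite strands may share 1 site.
chr11 8522893, mPGK-A, highest: atttgagagcgagatc
chr11 8592471, mPGK-B, high and close to it: caaagaacataagtca
chr11 39911509, mPGK-E, lowest: ccgcttggcaaattct
chr11 75964994, mPGK-E, high of the close pair: acctaacgctaaaatt
chr11 75964993, mPGK-C, low of the close pair: catatttcatcaatag

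Expression is the log2 ratio of a barcode's share of RNA reads to its share of DNA reads in the same pool and replicate, averaged over the replicates and set relative to the median integration of its pool. A value of 1 is therefore an output 2-fold above the pool median. Over all listed barcodes, a pool and replicate had between 2880244 and 3508366 RNA reads and between 3386477 and 3693449 DNA reads. The median chromosome 11 integration had 759 RNA reads and 1556 DNA reads over both replicates, against 542 RNA reads and 1678 DNA reads elsewhere. The error SD of a replicate was 0.73 on the log2 scale on chromosome 11 and 0.78 on the other chromosomes, and the replicates ranked the integrations with a Spearman rho of 0.948 on chromosome 11 and 0.939 elsewhere (a description over integrations). Each value is a mean over the cells that carry a barcode, so fewer expressing cells and less RNA per cell cannot be told apart. P-values of single integrations measure only the spread between the technical replicates. In tests of regions, the 6 pools were the samples.

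Reporters on chromosome 11 were on average more active than those elsewhere, and more of them were listed per Mb. Their mean was 0.35 and their median 0.67, against a mean of -0.22 and a median of -0.03 on the other chromosomes. Of the 1063 integrations, 637 (59.9%) lay above their pool median, against 8290 of 16794 (49.4%) elsewhere. The spread between sites was about as wide as in the rest of the genome, with an SD of 2.47 on chromosome 11 and 2.42 elsewhere. The upper tail held a larger share, with 41 integrations (3.86%) more than 16-fold above the pool median on chromosome 11 against 400 (2.38%) elsewhere. The lower tail was of similar size, with 64 (6.02%) more than 16-fold below on chromosome 11 against 1093 (6.51%) elsewhere.

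The difference was present in each pool. Mean expression on chromosome 11 minus that on the other chromosomes was 0.72 in mPGK-A, 0.91 in mPGK-B, 0.38 in mPGK-C, 0.41 in mPGK-D, 0.45 in mPGK-E and 0.49 in mPGK-F. mPGK-A and mPGK-B stood highest, and the other 4 pools lay close together. The mean difference was 0.56 ± 0.21 (SD, n = 6 pools), a 1.47-fold higher output (exact sign-flip permutation test over the pools, two-sided, p = 0.031, the smallest that 6 pools allow, and 0.0402 adjusted over 9 such tests). The chromosome was chosen with its high mean already known, so this value is a base for what follows and not independent evidence. Chromosome 11 ranked 1st of 21 chromosomes in mean expression and 1st in integrations per Mb of listed span.

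Most single reporters departed from the median of their pool. RNA and DNA counts were compared for each barcode with edgeR (quasi-likelihood test, Benjamini-Hochberg adjustment over all integrations). On chromosome 11, 512 integrations (48.2%) were higher than their pool median at an adjusted p under 0.05, against a background of 36.8% of all integrations. A further 281 (26.4%) were lower, against a background of 33.8%. The remaining 270 (25.4%) passed in neither direction, against 29.3% of all integrations. The share called higher ran from 41.8% in mPGK-D to 55% in mPGK-B, above that background in all 6 pools. The share called lower ran from 21.8% in mPGK-A to 29.8% in mPGK-F, below that background in all 6 pools. Like the mean, these shares are not independent of the choice of the chromosome.

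Integrations were also denser. Chromosome 11 held 9.0 integrations per Mb of its listed span of 118.1 Mb over all pools. Per pool it held 1.20 per Mb in mPGK-A, 1.69 in mPGK-B, 1.12 in mPGK-C, 1.54 in mPGK-D, 1.68 in mPGK-E and 1.76 in mPGK-F. The other chromosomes held between 0.98 per Mb in mPGK-C and 1.22 per Mb in mPGK-D. Density was 1.29-fold higher on chromosome 11, a log2 difference of 0.37 ± 0.16 (SD, n = 6 pools), and higher in 6 of 6 pools (exact permutation test, adjusted p = 0.0402). The reference takes all other chromosomes together, among them X at 2.18 per Mb over all pools. The next densest, chromosomes 15, 19 and 14, came close, at 8.78, 8.49 and 8.16 per Mb. Their mean expression was -0.28, -0.13 and -0.55, so a dense chromosome was not always a high one. The chromosome held between 5.21% (mPGK-A) and 6.69% (mPGK-F) of a pool's integrations. Its share of a pool's RNA reads ran from 5.45% in mPGK-C to 12.5% in mPGK-B, and its share of DNA reads from 4.10% in mPGK-A to 6.76% in mPGK-E.

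The high level was not spread evenly along the chromosome. The listed span was divided into 3 equal parts. The proximal part (chr11:3035422-42418562) held 290 integrations, 7.36 per Mb, with a mean of -0.13. The middle part (chr11:42418563-81801702) held 376, 9.55 per Mb, with a mean of 0.51. The distal part (chr11:81801703-121184843) held 397, 10.1 per Mb, with a mean of 0.53. In the proximal part 117 (40.3%) were called higher and 107 (36.9%) lower. The counts were 192 (51.1%) and 83 (22.1%) in the middle part, and 203 (51.1%) and 91 (22.9%) in the distal part. Over all integrations the shares were 36.8% higher and 33.8% lower, so both proximal shares were near that background.

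The middle and the distal part were above the other chromosomes in each pool, and the proximal part was not. The proximal part minus the other chromosomes averaged 0.11 ± 0.43 (SD, n = 6 pools), from -0.32 in mPGK-E to 0.67 in mPGK-A, and was positive in 3 of 6 pools (exact permutation test, p = 0.469, adjusted p = 0.527). For the middle part the difference was 0.74 ± 0.44, from 0.14 in mPGK-D to 1.30 in mPGK-B (6 of 6 pools positive, exact adjusted p = 0.0402). For the distal part it was 0.71 ± 0.33, from 0.19 in mPGK-C to 1.10 in mPGK-F (6 of 6 pools positive, exact adjusted p = 0.0402). Comparisons of a part with the other chromosomes contain the excess by which the chromosome was chosen, so they are not independent evidence of it. Tested directly, the distal part exceeded the proximal part by 0.60 ± 0.50, a 1.52-fold difference, from 0.11 in mPGK-A to 1.33 in mPGK-F (exact adjusted p = 0.0402). The exact adjusted p of the distal part against the rest was 0.0804 without the lowest 10% of DNA counts, and that of distal against proximal was 0.0804 from replicate 1 alone. In mPGK-A the distal and the proximal part were nearly level, at 0.59 and 0.48, while in mPGK-F they stood at 0.89 and -0.44.

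**Figure D1:**
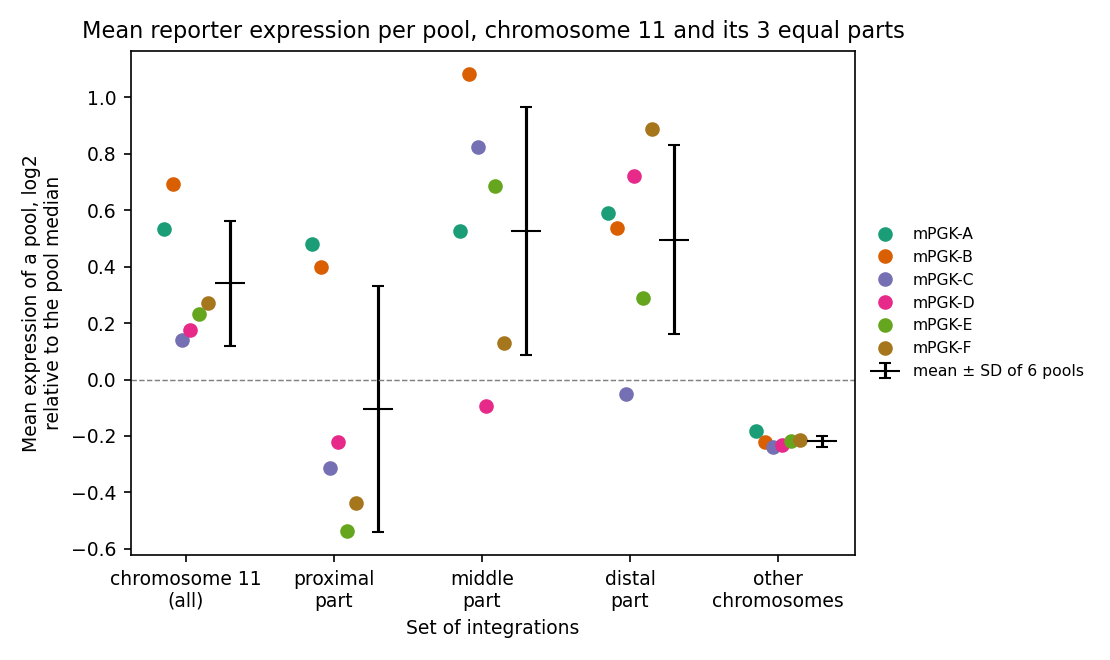
Mean expression of a pool (y axis, log2 relative to the pool median) for all chromosome 11 integrations, for the proximal, middle and distal part, and for the other chromosomes (x axis). Each coloured point is 1 of 6 pools and the black bar is their mean ± SD. Proximal means run from -0.54 to 0.48 and overlap the other chromosomes, whose means lie between -0.24 and -0.18, while all middle and distal means lie above those of the other chromosomes.

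Fixed windows of 2 Mb were used to find where the level lay. Of the 60 windows from the first to the last listed integration, 57 held at least 5 integrations from at least 3 pools and were tested, with the 6 pools as samples (limma, adjusted over all 1106 windows of the genome). On chromosome 11, 11 windows (19.3%) were higher than the other integrations of the pools at an adjusted p under 0.05, against 8.05% of all windows. Only 2 (3.51%) were lower, against 9.86% of all windows. These shares are not independent of the high mean by which the chromosome was chosen. At an unadjusted p under 0.05 the counts were 16 higher and 4 lower. The 3 windows not tested all had means below the pool median, so the counts of low windows leave them out. Without weighting pools by their number of integrations, 4 windows were called higher and 1 lower. The median window difference was 0.38 on chromosome 11 and -0.14 over all windows tested.

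The 11 high windows carried most of the excess. They held 316 integrations (29.7%). With those left out, the pooled difference between chromosome 11 and the rest was 0.17, against 0.56 with all integrations. This is a description, since the windows were chosen by their level. Of the 60 windows, 40 added to the excess over the rest and 20 took from it. By the centre of the window, 2 of the 18 tested windows of the proximal part were called higher, 4 of 20 in the middle part and 5 of 19 in the distal part.

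The highest window was the last one, at the distal end of the listed span (chr11:120000001-122000000). Its mean was 2.34 over 14 integrations from 5 pools, 5.72-fold above the other integrations (limma difference 2.52 ± 0.53 SE, adjusted p = 0.0023). The pool means were 2.31 in mPGK-A, 2.04 in mPGK-B, 2.34 in mPGK-C, 4.67 in mPGK-E and 2.16 in mPGK-F, with no integration from mPGK-D. Every pool present stood above the rest, although mPGK-C and mPGK-E had a single integration each. Site by site, 12 of the 14 were called higher, from 1.49 to 4.67. The integration at 120491472 stood at -0.07, between neighbours at 2.34 and 1.49. The integration at 121184843, the last one listed on the chromosome, was at -1.28 and was called lower.

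The next highest window (chr11:52000001-54000000) had a mean of 1.94 over 23 integrations, and 22 of them lay above their pool median. The pool means were 1.54 in mPGK-A, 1.81 in mPGK-B, 0.88 in mPGK-C, 1.99 in mPGK-D, 3.85 in mPGK-E and 1.75 in mPGK-F, all above the rest (limma difference 2.13 ± 0.43 SE, adjusted p = 0.0018). Only mPGK-C stood below 1. In the proximal part, a pair of neighbouring windows stood out. The window chr11:22000001-24000000 averaged 1.80 over 23 integrations, with 5 of 6 pools above the rest and mPGK-A, with 2 integrations, at -0.55 (limma difference 1.99 ± 0.43 SE, adjusted p = 0.0026). The window before it, chr11:20000001-22000000, averaged 1.30 over 29 integrations, with pool means from 0.72 in mPGK-D to 1.92 in mPGK-A (limma adjusted p = 0.0052).

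The other 7 high windows lay in the middle and distal parts. In the middle part, chr11:68000001-70000000 was among the most crowded windows, with 40 integrations and a mean of 0.94, but its pools were uneven, from 1.92 in mPGK-C to -0.56 in mPGK-F. The adjacent windows chr11:76000001-78000000 and chr11:78000001-80000000 averaged 1.00 and 1.07 over 27 and 33 integrations. In the distal part, the adjacent windows chr11:94000001-96000000 and chr11:96000001-98000000 averaged 1.13 and 1.32 over 30 and 28 integrations. The window chr11:116000001-118000000 averaged 1.50 over 29 integrations, with 5 pools above the rest and mPGK-C at -0.87. The window chr11:106000001-108000000, with 40 integrations, averaged 0.77 and was the weakest of those called (limma difference 0.95 ± 0.32 SE, adjusted p = 0.036). With 1 pool left out, between 7 (without mPGK-B or mPGK-E) and 10 of the 11 windows stayed called. Across 15 settings, the one reported included, the windows starting at 22000001, 52000001, 94000001 and 120000001 were called in all 15. Those starting at 68000001 and 106000001 were called in 8 and 7 of the 15.

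Windows called lower were fewer and held fewer reporters. The 3 windows with too few integrations to test all had means below the pool median. The window starting at 14000001 averaged -6.72 over 1 integration. That starting at 38000001 averaged -5.61 over 3, of which 1 had no RNA read. Both means were lower than that of any tested window. The third started at 92000001 and held 3 integrations. The lowest window tested was chr11:36000001-38000000, with a mean of -2.49 over 11 integrations (limma difference -2.30 ± 0.65 SE, adjusted p = 0.0125). The pool means were -2.25 in mPGK-A, -1.41 in mPGK-B, -0.94 in mPGK-C, -2.81 in mPGK-D, -7.07 in mPGK-E and -2.29 in mPGK-F. mPGK-A, mPGK-B and mPGK-E had 1 integration each, mPGK-C and mPGK-D 2 each and mPGK-F 4. The single one of mPGK-E read -5.09 and -9.06 in the replicates. All 6 pools were below the rest, 8 integrations were called lower and 0 higher. The window chr11:10000001-12000000 averaged -2.06 over 13 integrations (limma difference -1.88 ± 0.61 SE, adjusted p = 0.0314). There the pools were uneven: mPGK-B was at -3.52 over 5 integrations, mPGK-C at -3.85 with 1, mPGK-E at -1.53 over 3 and mPGK-F at -2.07 with 1, while mPGK-A and mPGK-D stood at 0.42 and 0.47. The mPGK-B values were -4.485, -6.12, 0.92, 0.43 and -8.35, and the reporter at -8.35 had no RNA read. The mPGK-C reporter read -6.25 and -1.48 in the replicates and was not called. Its call was present in 9 of the 15 settings, and that of the window at 36000001 in 14. Without mPGK-F, neither passed, and without mPGK-B, mPGK-C or mPGK-E only that at 36000001 did. Without mPGK-B the difference of the window at 10000001 was -0.95 (limma adjusted p = 0.427).

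The next lowest windows did not pass the test and are given as values. The window starting at 24000001 averaged -1.51 over 14 integrations, with 5 of 6 pools below the rest (limma adjusted p = 0.088). The window starting at 40000001 averaged -1.42 over 9, and the window starting at 110000001 averaged -1.41 over 13. Their limma adjusted p-values were 0.233 for the window at 40000001 and 0.146 for that at 110000001. Windows with more integrations tended to have the higher mean: over the 57 tested windows Pearson's r was 0.507 and Spearman's rho 0.562, a description in which all windows share the same 6 pools. The median high window held 29 integrations and the median tested window 17, while the low windows held 11 and 13.

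**Figure D2:**
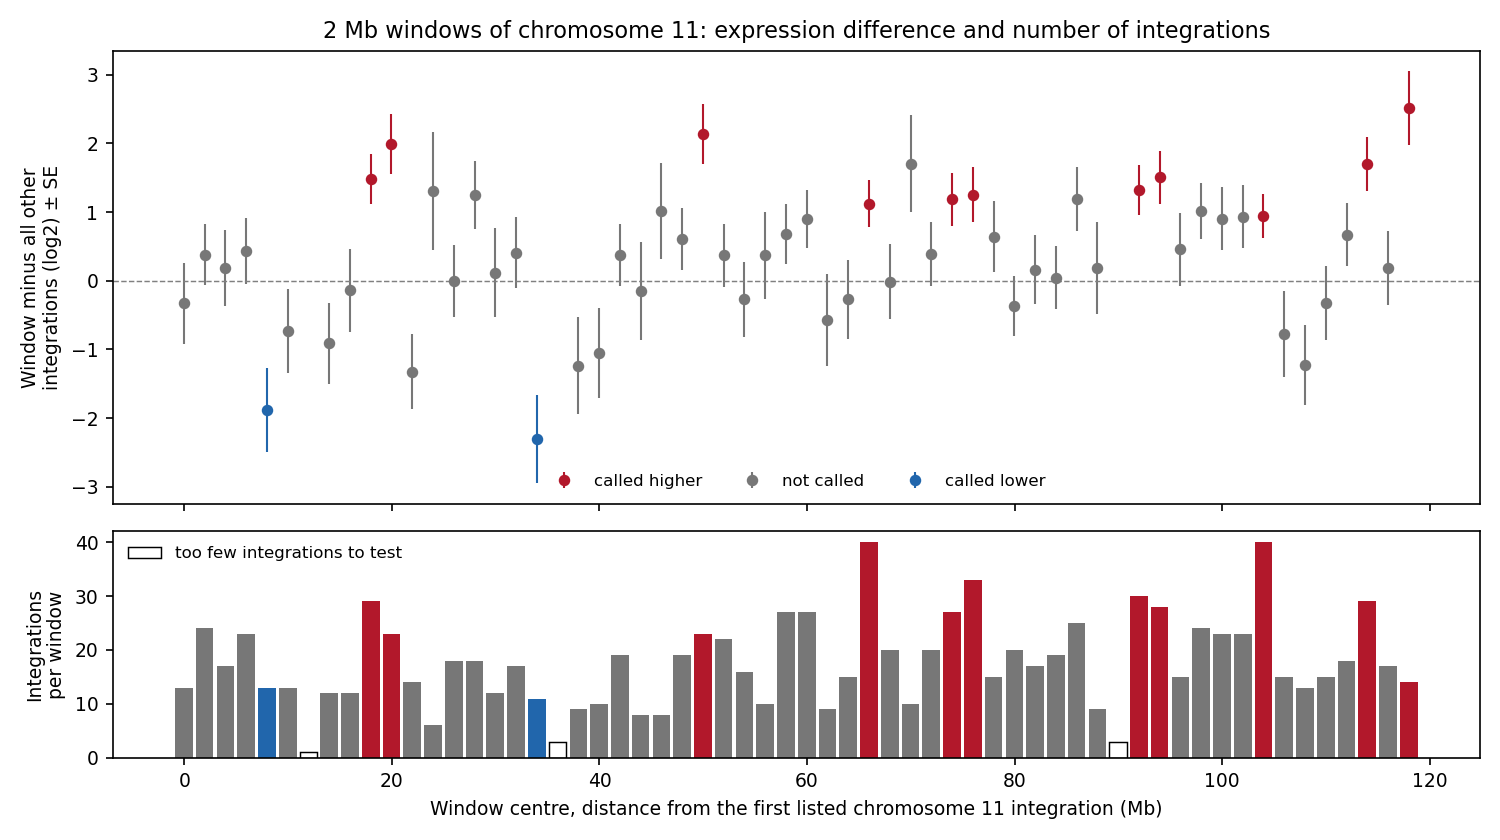
Upper panel: difference between each 2 Mb window of chromosome 11 and all other integrations (y axis, log2 ± SE from limma) by distance of the window centre from the first listed integration (x axis, Mb), with called windows coloured. Lower panel: number of integrations per window. The 11 windows called higher lie between 0.95 and 2.52, the 2 called lower at -1.88 and -2.30, and 3 windows held too few integrations to test. The means of those 3 were all below the pool median.

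Finer stretches were drawn with a running median over 9 consecutive integrations of all pools. A high stretch was a run of at least 5 integrations at which this median was at least 1, and a low stretch one at which it was at most -1. Chromosome 11 had 24 high stretches, with 352 integrations (33.1%) in 22.5 Mb, or 19.1% of the listed span. It had 10 low stretches, with 122 integrations (11.5%) in 24.4 Mb, or 20.7% of the span. High and low stretches thus covered almost the same length, but high ones held 15.6 integrations per Mb and low ones 5.00. The 589 integrations between them lay at 8.27 per Mb. These levels describe how the stretches were drawn and are no test. The cut-offs lay around the pool median, while the median of chromosome 11 was 0.67. The numbers of high and low stretches are thus not independent of its high level. They were not compared with other chromosomes.

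High stretches were shorter in kb, but not in integrations, the unit in which stretches were drawn. The median high stretch held 13.5 integrations and the median low one 10. The median length of high stretches was 951 kb, from 49.4 to 2594 kb, against 1805 kb for low stretches, from 405 to 7392 kb. Within high stretches 289 of 352 integrations (82.1%) lay above their pool median, and within low stretches 101 of 122 (82.8%) lay below it. The others, 17.9% in high and 17.2% in low stretches, went against the stretch they were in. Each high stretch held integrations from at least 3 pools and each low stretch from at least 4. All 6 pools were present in 8 of the high stretches and 2 of the low ones.

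The longest high stretch (chr11:51816245-54410521, 2594 kb) held 33 integrations with a mean of 1.84. By pool the means were 1.94 in mPGK-A, 1.38 in mPGK-B, 1.04 in mPGK-C, 1.08 in mPGK-D, 3.38 in mPGK-E and 2.07 in mPGK-F. The stretch chr11:78495480-80213306 also held 33, with a mean of 1.42. There mPGK-F, with 6 integrations, stood at -0.62, while the other 5 pools lay between 1.05 and 2.63. The stretch chr11:19820074-21223128 was the most even of the large ones: its 28 integrations averaged 2.05, and the pool means ran from 1.81 in mPGK-D to 2.46 in mPGK-A. The stretch chr11:96758340-98516211, with 25 integrations, averaged 1.11 with an SD of 3.21. Its mPGK-C mean was -2.98 over 3 integrations and its mPGK-D mean 2.55 over 5. Next came 3 stretches of 18 integrations each. The stretch chr11:60309861-61398654, from 5 pools, had a mean of 0.97, with 14 above their pool median. The stretch chr11:22451705-23413262, from 6 pools, averaged 2.25 with 17 above, and chr11:69356693-69888320, from 5 pools, averaged 2.32 with 15 above. Since the running median decides, a short high stretch can have a low mean: chr11:62823018-63113703, named after its values were seen, averaged -0.56 over 6 integrations from 3 pools.

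The 2 largest low stretches lay in the proximal part and at its border. The first, chr11:35989649-43381949, was 7392 kb long and held 29 integrations from all 6 pools, only 3.92 per Mb. Its mean was -2.36, with pool means of -2.52 in mPGK-A, -0.84 in mPGK-B, -0.24 in mPGK-C, -1.65 in mPGK-D, -7.38 in mPGK-E and -2.53 in mPGK-F. mPGK-E had the lowest mean, from 3 integrations at -12.27, -7.07 and -2.80, and mPGK-C was near the pool median. The reporter at -12.27 had no RNA read, so its value was set by the pseudocount added to its RNA count and by its DNA reads. That at -7.07 read -5.09 and -9.06 in the replicates. The mPGK-E mean is therefore poorly fixed. It also enters the stretch mean of -2.36, while the stretch median was -2.08. Of the 29, 19 were called lower and 2 higher. The second, chr11:13010994-19474824, was 6464 kb long and held 24 integrations with a mean of -1.93. There mPGK-E stood at 0.56 over 4 integrations, while the other 5 pools ran from -1.15 to -5.87. A shorter low stretch in the distal part, chr11:110357678-112807708, was uniform: all 10 integrations, from 5 pools, lay below the pool median, between -5.25 and -0.89. The stretch chr11:9724881-11800095 averaged -1.59 over 14 integrations, 7 of them from mPGK-B. Of the other 2 low stretches of 10 integrations, chr11:64204229-66356020 averaged -1.20 and chr11:24136077-25670390 averaged -1.81.

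**Figure D3:**
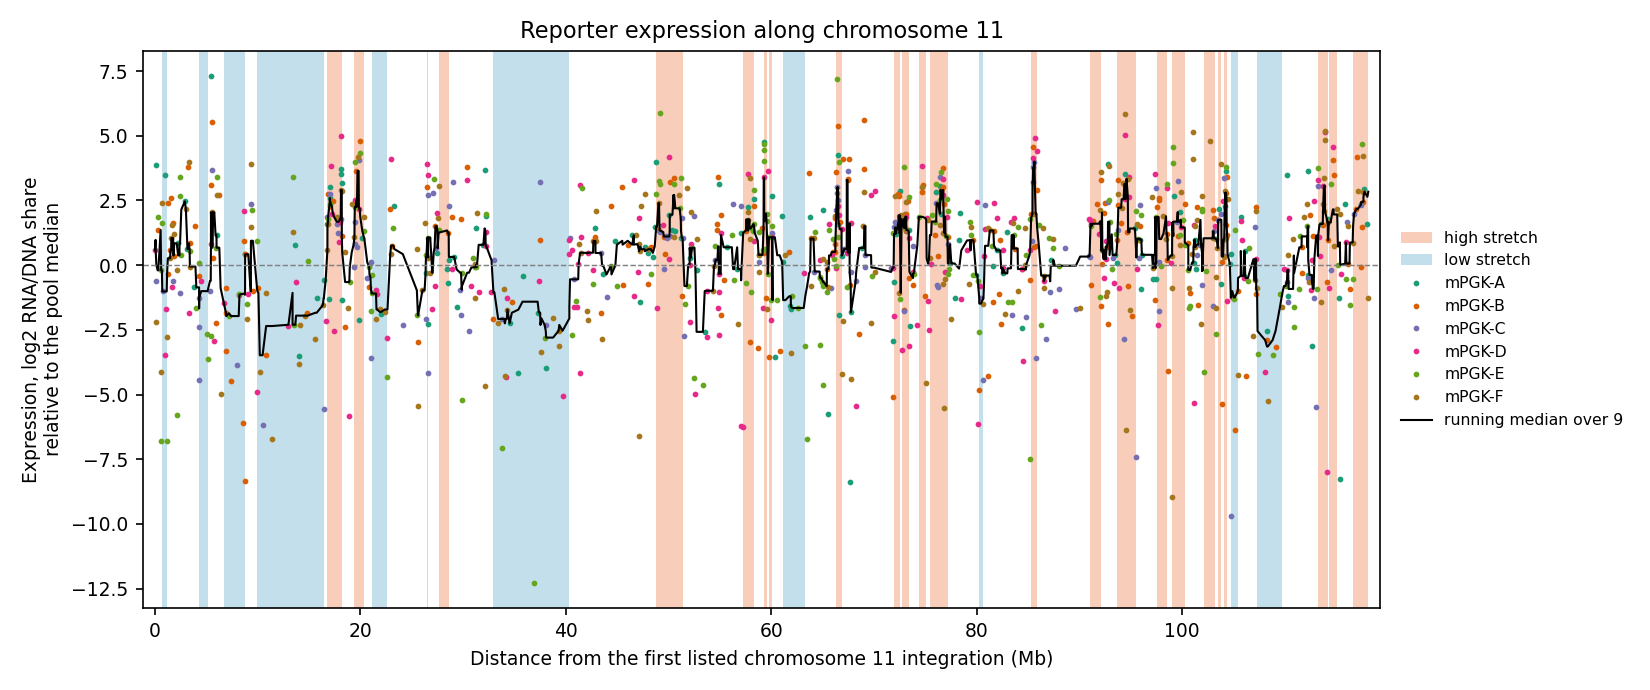
Expression of the 1063 chromosome 11 reporters (y axis, log2 relative to the pool median) by distance from the first listed integration (x axis, Mb). Points are integrations coloured by pool, the black line is the running median over 9, and shading marks the 24 high (orange) and 10 low (blue) stretches. Long low stretches with few points lie in the proximal part and at its border, and most high stretches lie in the middle and distal parts.

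Stretches drawn from some pools held in a pool not used to draw them. For each pool, stretches were drawn from the other 5 and read in the pool left out. Inside high stretches the left-out pools averaged 1.19 (mPGK-A), 1.31 (mPGK-B), 0.68 (mPGK-C), 0.63 (mPGK-D), 1.83 (mPGK-E) and 1.18 (mPGK-F). Inside low stretches they averaged -1.25, -1.65, -1.42, -1.01, -1.92 and -1.70, in the same order of pools. High and low stretches did not overlap in any pool mean, and the integrations between them averaged 0.24 over the pools, from -0.14 in mPGK-C to 0.70 in mPGK-B. The difference between high and low stretches was 2.63 ± 0.74 (SD, n = 6 pools), a 6.19-fold difference (exact permutation test, 6 of 6 pools positive, adjusted p = 0.0402). It ran from 1.64 in mPGK-D to 3.75 in mPGK-E. The low stretches were read from few reporters, between 7 in mPGK-C and 22 in mPGK-F, and the high ones from between 37 in mPGK-E and 71 in mPGK-B.

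Local crowding went with a higher level. An integration was called crowded where at least 2 others of any pool lay within 100 kb, which held for 683 of the 1063. Crowded reporters averaged 0.94 in mPGK-A, 1.07 in mPGK-B, 0.39 in mPGK-C, 0.87 in mPGK-D, 0.98 in mPGK-E and 0.71 in mPGK-F. Reporters with 0 or 1 neighbour averaged -0.16, -0.20, -0.46, -1.04, -0.78 and -0.43, in the same order of pools. The groups did not overlap, and the difference was 1.34 ± 0.41 (SD, n = 6 pools), or 2.53-fold (exact permutation test, 6 of 6 pools positive, adjusted p = 0.0402). Chromosome 11 had fewer lone sites than the rest, with 13.2% of integrations without a neighbour within 100 kb against 18.5% elsewhere. The most crowded sites were not more frequent, with 4.14% having 7 or more neighbours against 5.06% elsewhere. The median number of neighbours was 2 on both. Within classes of similar local density, the same difference between chromosome 11 and the other chromosomes, 0.56 over all integrations, was 0.48 (exact permutation test, adjusted p = 0.0402). The upper classes span several neighbour counts, so density still varied within them. The part of local density in the level of the chromosome was not tested.

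**Figure D4:**
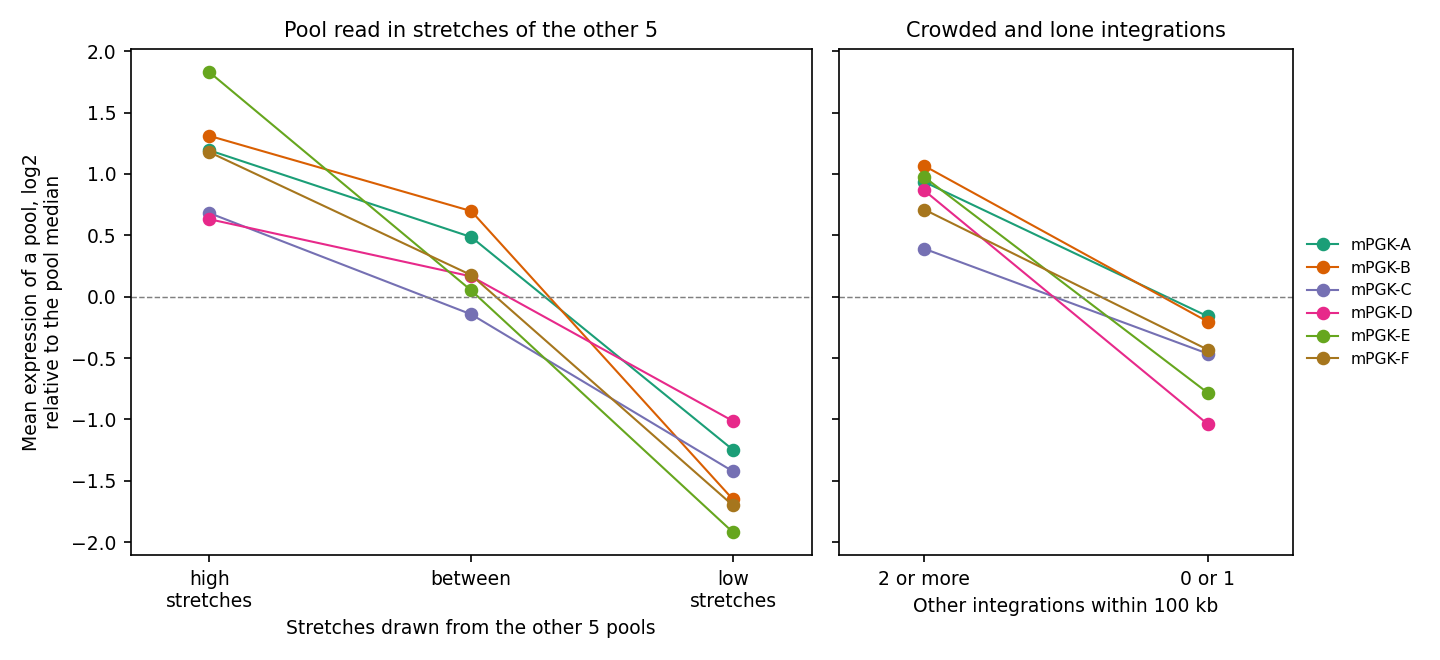
Mean expression of each pool (y axis, log2 relative to the pool median). Left: reporters of a pool inside high stretches, between stretches and inside low stretches drawn from the other 5 pools. Right: reporters with 2 or more, and with 0 or 1, other integrations within 100 kb. Lines join the values of a pool. Every pool is highest inside high stretches and lowest inside low stretches, and every pool is higher where integrations are crowded.

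Edges between high and low ground were followed integration by integration at the 3 places where such stretches lay closest. The sharpest change between neighbouring tested windows was at the distal edge of the pair of high windows of the proximal part. The window chr11:24000001-26000000 had a mean of -1.51 and the window before it 1.80, a step of -3.31. The high stretch there ended at 23413262 and the low stretch began at 24136077, 723 kb further on, with 6 integrations between. The last 6 of the high stretch stood at -2.13 (mPGK-A, called lower), 4.78 (mPGK-B), 4.35 (mPGK-E), 1.04 (mPGK-A), 1.34 (mPGK-E) and 1.85 (mPGK-F), the last 5 called higher. The 6 in between stood at -0.48, -0.85, -0.06, -1.75, 0.11 and -3.60, so the level had dropped by the first of them, 290 kb past the edge. The first 4 of the low stretch stood at -0.37, -1.09, -2.08 and -0.94, from mPGK-E, mPGK-F and mPGK-D.

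The pair of high windows was not 1 continuous high stretch. It covered most of the stretch chr11:19820074-21223128 and the whole of chr11:22451705-23413262. The level dropped between them, but the running median there, from -0.65 to 0.80, did not reach that of a low stretch. The 5 integrations after the first averaged -2.14 and the 5 before the second -1.17. These sets share members, among them a reporter of mPGK-D at -5.85. At the proximal edge of the first, the low stretch ended at 19474824 and the high stretch began at 19820074, 345 kb apart, with 2 integrations between. The last 6 of the low stretch stood at 0.18 (mPGK-E), -2.85 (mPGK-F), -1.27 (mPGK-A), -1.54 (mPGK-F), -5.56 (mPGK-C) and -0.59 (mPGK-A). The 2 between stood at -2.15 (mPGK-D) at 19648560 and at 1.59 (mPGK-A) at 19818616. The first 5 of the high stretch stood at 0.57, 1.87, 1.59, 1.77 and 2.77, from 4 pools, all called higher, and the next, at 20011755 (mPGK-A), stood at -1.29 and was called lower.

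The closest pair of stretches was in the distal part. The high stretch chr11:107149177-107460382 held 13 integrations from 6 pools with a mean of 2.04, of which 11 were called higher. The low stretch chr11:107797888-108482127, 338 kb further on, held 7 with a median of -1.25 and a range from -9.70 to 1.37. Of these, 4 were called lower, none was called higher and 2 lay above their pool median. The 2 integrations between them were at 2.57 (mPGK-F) and 0.05 (mPGK-A). The edge was not clean on either side: the last reporter of the high stretch was at -1.38 (mPGK-D, called lower), and the low stretch began with one at 0.44 (mPGK-A, not called). The second of the low stretch had no RNA read in either replicate against 2293 DNA reads (mPGK-C).

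Long gaps without integrations were few. The median distance between neighbouring integrations was 59.5 kb on chromosome 11 and 65.2 kb elsewhere, and 28 of 1062 gaps exceeded 500 kb on chromosome 11 against 990 of 16774 elsewhere. The longest, chr11:14429214-16022123, spanned 1593 kb inside the second largest low stretch, between reporters at -6.72 and -2.35. The next, chr11:73140177-74709803, spanned 1570 kb between reporters at 2.85 and -0.10, so a long gap was not always flanked by low ones. The others spanned 1364 kb (chr11:27164367-28527974), 1096 kb (chr11:91614088-92709878) and 1091 kb (chr11:38820824-39911508). The last of these lay inside the largest low stretch and ended at the lowest reporter of the chromosome.

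The range of single reporters was wide within this landscape. Named reporters were the 5 highest and 5 lowest of the 1022 with at least 100 DNA reads in each replicate. The highest, at 8522893 in mPGK-A, stood 159-fold over the median of mPGK-A. It gave 8661 and 10791 RNA reads in the replicates, from 155 and 205 DNA reads. The running median was 2.04 at this reporter, but the run was shorter than the 5 integrations required. The reporter therefore lay in no high stretch. Its 6 neighbours within 100 kb came from the other 5 pools and stood at 0.82 (mPGK-D), 3.09 (mPGK-B), -2.75 (mPGK-E), 2.04 (mPGK-F), 5.54 (mPGK-B) and 3.67 (mPGK-C), in order of position. That at 5.54, at 8592471, was itself the fifth highest named reporter, 46.6-fold above its pool median with 21907 and 22258 RNA reads. Reporters of 4 pools called higher thus lay close to one of mPGK-E called lower.

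The other 3 of the highest were at 52172755 in mPGK-E (58.8-fold above its pool median), 97519768 in mPGK-F (56.9-fold) and 72098316 in mPGK-B (48.9-fold). The first lay in the longest high stretch and the second in another high stretch, while the third lay in none. The reporter at 72098316 alone gave 55369 and 57360 RNA reads in the replicates. The replicates of the 5 highest differed by at most 0.63 on the log2 scale.

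The 5 lowest had no RNA read in either replicate, so their fold is a lower bound from a floor of 3 reads over both replicates, which covers counting error only. The lowest, at 39911509 in mPGK-E, had 7192 and 7158 DNA reads and was at least 1642-fold below its pool median. The next, at 107841268 in mPGK-C, had 1145 and 1148 DNA reads and was at least 277-fold below. The remaining 3, at 102050297 (mPGK-F), 70677662 (mPGK-A) and 11807457 (mPGK-B), were at least 167-fold, 113-fold and 112-fold below. Only the first 2 lay in low stretches. In all, 12 of the 1063 (1.13%) had no RNA read in either replicate, against 172 of 16794 (1.02%) elsewhere. They came from all 6 pools, 3 from the proximal, 4 from the middle and 5 from the distal part, with 2 in low stretches and 1 in a high stretch.

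Likeness of neighbouring reporters faded with distance. On chromosome 11, expression of pairs within 1 kb was correlated with r = 0.394 (48 pairs), against 0.421 elsewhere (657 pairs). For pairs 5 to 20 kb apart r was 0.321 on chromosome 11 and 0.370 elsewhere, and 20 to 50 kb apart it came to 0.288 on both. Beyond that, r was 0.148 there and 0.214 elsewhere from 50 to 100 kb, and 0.0645 there and 0.170 elsewhere from 100 to 200 kb. Among pairs 1000 to 5000 kb apart chromosome 11 had 0.0135 and the other chromosomes 0.0512. These are descriptions over pairs that share integrations, and the difference from the rest was not tested.

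**Figure D5:**
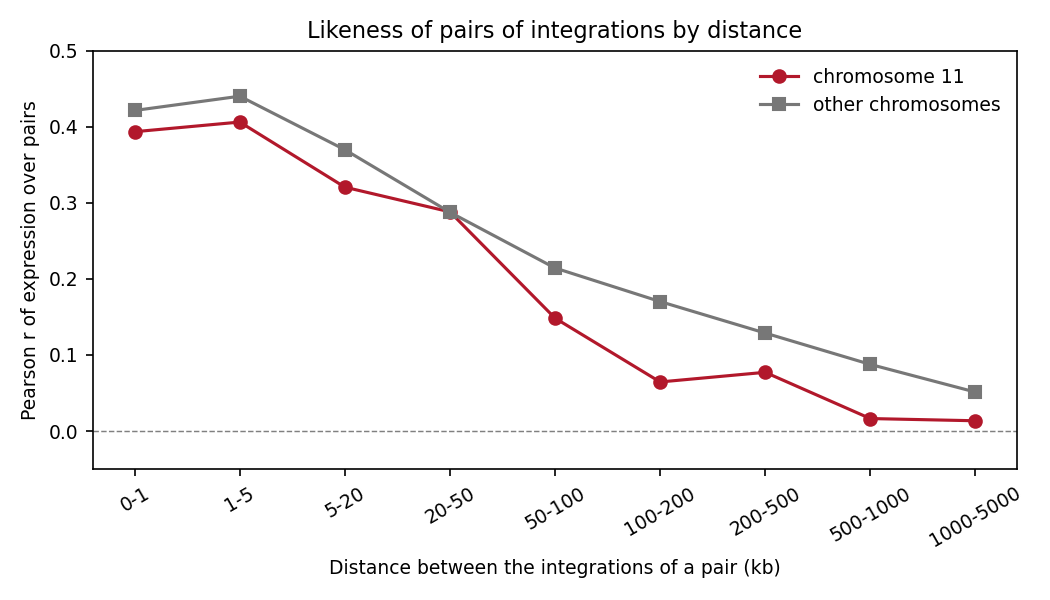
Pearson correlation of expression over pairs of integrations (y axis) by the distance between them (x axis, kb), for chromosome 11 and for the other chromosomes. On both, r falls from about the level of the closest pairs, 0.394 and 0.421, to 0.0135 and 0.0512 at 1000 to 5000 kb.

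Some close neighbours differed strongly. Of 295 pairs within 20 kb with at least 100 DNA reads in each replicate, 33 (11.2%) differed by at least 4 log2 units. The 5 closest of these lay on opposite strands, and those listed 1 base apart may share 1 site. Such pairs were not counted on the other chromosomes, and strands were not compared over all 295 pairs. Whether this share is high, or opposite strands unusual, was therefore not tested. At 75964994 (plus strand, mPGK-E) the reporter stood at 3.79, with 7206 and 6743 RNA reads, while that at 75964993 (minus strand, mPGK-C) stood at -1.77, with 30 and 38 RNA reads. Their DNA reads were 1496 and 1449 for the high reporter and 276 and 376 for the low one. A pair in the same pool, mPGK-D, at 49660843 (minus) and 49660844 (plus) stood at 3.30 and -1.18. At 88200165 and 88200289, 124 bases apart, the values were 0.57 (mPGK-D) and -7.51 (mPGK-E). At 100420733 and 100420594, 139 bases apart, they were 3.52 (mPGK-D) and -1.34 (mPGK-B). The second highest named reporter, at 52172755 (5.88), lay 168 bases from one at 1.28 (mPGK-C).

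No difference between the strands was detectable over these pools. Plus and minus strands held 535 and 528 integrations. Expression on the plus minus that on the minus strand averaged -0.03 ± 0.46 (SD, n = 6 pools) and was positive in 3 of 6 pools (exact permutation test, p = 0.875, adjusted p = 0.875). It ran from -0.79 in mPGK-D to 0.52 in mPGK-E.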

How the data were processed

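RNA and DNA barcodes and integration sites were read from 72 libraries (18 groups of 4) of 6 pools. The authors deposited raw read counts per barcode, pool and replicate for RNA and DNA, with position and strand. Bowtie2 2.0 and mm9 are named, per the submitters' processing notes. The sources used here do not say how the 2 PCRs were combined, which barcodes were kept or whether positions count from 0 or 1 (a listed position may be a base off). Totals are sums over listed barcodes.

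Expression was computed from the deposited counts with a pseudocount of 0.5 RNA reads. Pools, not integrations, were the samples of the exact sign-flip tests (9 tests, Benjamini-Hochberg, threshold 0.05). Single integrations were tested within each pool with edgeR 4.0.16 (TMM scaling, coefficient shifted to the pool median), with DESeq2 1.42.0 as an alternative. Windows were tested over pools with limma 3.58.1, weighted by the number of integrations, in R 4.3.3. Other values used Python 3.11.15, numpy 2.4.6 and pandas 2.3.3, and figures matplotlib 3.10.9. The scripts for edgeR and limma were tested on simulated data.

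Replicate numbers pair RNA and DNA of the same culture, per the labels. Deviations of RNA and DNA between replicates had correlations from -0.00212 to 0.0576 over the pools.

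Named windows were those called (at most 10 each way, otherwise the 5 most extreme), the 5 high and 5 low stretches with most integrations (with ties), the 5 highest and 5 lowest reporters, the 5 closest pairs differing by at least 4 log2 units and the 5 longest gaps. The window at 106000001 was named as the only called one outside this rule. The members, windows and tests were chosen with earlier results of these data known. Of the 1063 integrations, 55 have a barcode listed in several pools. PCR reads without molecular identifiers are not independent molecules, so bounds cover counting error only. No mm9 annotation was used here, so sites are not placed in genes.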

Additional observations from a re-analysis of the deposited data

How the results depend on the processing

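Alternatives changed 1 choice at a time. With 1 pool left out, the smallest exact p that 5 pools allow is 0.0625, so no such test can pass. The adjusted p was then 0.0804 for each result that passes with 6 pools. Leaving out each pool or replicate gave 0.49 to 0.59 for chromosome 11 minus the rest, 0.63 to 0.86 for the middle and 0.64 to 0.82 for the distal part, 0.46 to 0.70 for distal minus proximal, 0.33 to 0.41 for log2 density, 1.16 to 1.45 for crowded minus lone reporters, 2.44 to 2.87 for high minus low stretches in left-out pools and -0.15 to 0.12 for plus minus minus strand. The direction of each but the strand held in every case.

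The distal part, without the lowest 10% of DNA counts, was 0.68 above the rest (exact permutation test, adjusted p = 0.0804), and distal minus proximal without replicate 2 was 0.54 (exact adjusted p = 0.0804). The strand difference turned to 0.020 with barcodes of several pools used once and to 0.068 with medians. Crowded minus lone reporters could not be split by the median within 20 kb, since that median is 0; with at least 1 neighbour within 20 kb, chosen after seeing the data, it was 0.91.

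Windows called higher numbered 8 to 11 with a pool or replicate left out and 4 without weights. Windows called lower numbered 0 to 2 with a pool or replicate left out (0 without mPGK-F), 1 without weights, 1 with 1 Mb windows and 4 with windows shifted by 1 Mb. A threshold of 0.5 gave 38 high stretches, and a running median over 15 gave 6 low stretches. The cause of these changes was not tested.

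With a replicate block the integrations called were 509 higher and 277 lower, and with DESeq2 512 and 284, so the paired fit changed no count by over 1.5 times. Without the shift to the pool median they were 470 and 317.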
